A study of Caenorhabditis elegans with 2 samples.

Results

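The loci described here are the small non-coding RNA genes of Caenorhabditis elegans that carry only the general annotation class ncRNA. All Ensembl WBcel235 genes of that class on the 6 nuclear chromosomes were taken, 7764 in all. A gene was kept if it lay more than 200 bp from every tRNA, snoRNA, snRNA and rRNA gene, which left 7282 members. Each member was examined with 200 bp on either side, so neighbouring members often share bases. The 7282 windows merge into 5294 loci, and 958 members have exactly the coordinates of another member, usually on the opposite strand. Members ran from 17 to 9094 bp with a median of 141 bp. Of these genes, 2341 (32.1%) overlapped a protein-coding promoter window, meaning the 1000 bp before and the 200 bp after the first base of a coding transcript, and 4941 did not. The 482 ncRNA genes left out near another structural RNA gene do not enter any count of members.

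Binding of APTF-2 was measured by ChIP-seq, in which DNA fragments pulled down with a tagged protein are sequenced. The animals were of strain RW12304, which carries a CRISPR insertion that fuses TY1, EGFP and 3xFLAG tags to aptf-2 at its own locus on chromosome IV, and anti-GFP antibody was used for the pull-down. Whole young adults of 61.5 h were used, synchronised as L1 larvae starved after bleaching, in 1 group of 2 biological replicates with 1 technical replicate each. No control library and no animals without the tag were analysed here, and whole animals mix all tissues. The authors' main list from both replicates held 892 peaks under their limit on the irreproducible discovery rate (IDR), a measure of how consistently a peak ranks in both replicates. A longer ranked list held 94866 peaks, down to very weak ones. A peak's signal is the number its caller assigned, on a scale that no source used here states, so it is read within a list and given with its rank there. Values of the 2 replicates are set side by side as description only, since their lists have separate scales. Sequencing depth is unknown, since only peak lists were used. The intervals below are 95% intervals and cover the counting of genes or summits only.

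APTF-2 belongs to the AP-2 family of DNA-binding proteins, and its known role in the worm is in epidermal morphogenesis of the embryo. Most members have no known function. The few well-known ones are parts of ribonucleoprotein machines. RNase P RNA is the catalytic RNA that trims the leaders of tRNA precursors, and RNase MRP RNA is its relative in ribosomal RNA processing. SRP RNA is the scaffold of the signal recognition particle, which brings ribosomes making secreted proteins to the endoplasmic reticulum. Genes for such RNAs are often transcribed by RNA polymerase III, which can use promoter elements inside the transcribed sequence such as the B box. E2F proteins are cell cycle regulators that bind a short GC-rich site at many promoters.

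The sequences at the summits of 5 members outside the large classes are shown first, because they place the strongest point of a peak relative to the RNA. Sequences are from the RefSeq copy of WBcel235 (ce11), on the strand of the RNA gene, 5′ to 3′, and capitals mark bases of the annotated RNA. The first 4 are the summit base with 100 bp on either side, in the order SRP RNA gene srpr-2.1 (chrIII:5211235-5211435, plus strand), SRP RNA gene srpr-2.2 (chrIII:5031646-5031846, minus strand), RNase MRP RNA gene mrpr-1 (chrII:7200250-7200450, plus strand) and the long RNA gene tts-1 (chrX:1503842-1504042, minus strand). The fifth runs from 20 bp beyond the summit to 20 bp past the 3′ end of WBGene00195021 (chrIV:4725416-4725617, minus strand), the member with the highest signal.
srpr-2.1: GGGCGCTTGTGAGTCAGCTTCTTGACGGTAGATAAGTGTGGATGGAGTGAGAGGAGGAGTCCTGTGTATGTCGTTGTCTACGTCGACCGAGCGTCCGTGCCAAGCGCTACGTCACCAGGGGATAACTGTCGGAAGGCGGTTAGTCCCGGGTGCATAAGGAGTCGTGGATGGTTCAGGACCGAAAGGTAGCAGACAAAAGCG
srpr-2.2: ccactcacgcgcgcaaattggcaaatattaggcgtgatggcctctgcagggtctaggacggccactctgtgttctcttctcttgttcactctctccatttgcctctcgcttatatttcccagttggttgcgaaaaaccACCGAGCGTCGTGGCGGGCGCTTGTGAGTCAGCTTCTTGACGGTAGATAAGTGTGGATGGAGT
mrpr-1: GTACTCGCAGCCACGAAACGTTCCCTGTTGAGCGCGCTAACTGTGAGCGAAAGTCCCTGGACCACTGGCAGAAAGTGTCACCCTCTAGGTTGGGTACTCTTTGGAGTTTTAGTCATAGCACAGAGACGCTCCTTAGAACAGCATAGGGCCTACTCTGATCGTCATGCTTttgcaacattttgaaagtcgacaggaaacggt
tts-1: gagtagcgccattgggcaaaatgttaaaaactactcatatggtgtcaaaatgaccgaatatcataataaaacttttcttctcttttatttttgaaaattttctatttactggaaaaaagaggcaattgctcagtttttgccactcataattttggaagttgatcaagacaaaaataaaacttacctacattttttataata
WBGene00195021: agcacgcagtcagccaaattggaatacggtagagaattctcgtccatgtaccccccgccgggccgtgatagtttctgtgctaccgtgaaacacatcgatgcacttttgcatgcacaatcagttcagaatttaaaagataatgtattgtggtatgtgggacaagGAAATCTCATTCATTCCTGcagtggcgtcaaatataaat
The srpr-2.1 window lies wholly inside the RNA, while the srpr-2.2 window reaches only the first 63 bases of its RNA. The tts-1 window holds no base of the annotated RNA.

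Few members carried an APTF-2 summit. A main-list summit lay in the gene or within 200 bp of it for 78 of 7282 members (1.07%, Wilson interval 0.859 to 1.33%). Over all 24789 RNA genes of every non-coding class the same count gave 348 (1.4%). Of 19973 protein-coding genes, 629 (3.15%) had a summit in the promoter window, a larger target than most member windows. Most of these RNA genes are piRNA genes, which rarely had a summit, and without them the count was 343 of 9426 (3.64%), members included. The share among members was below all 3 of these values, but the windows searched differ in size. Per Mb, all member windows held 16.8 summits (exact Poisson interval 12.7 to 21.9) and all promoter windows 18.8 (17.2 to 20.5). Of members inside promoter windows, 52 of 2341 (2.22%, interval 1.70 to 2.90%) had a summit, and of the others 26 of 4941 (0.526%, interval 0.359 to 0.770%). Several members can lie beside 1 summit, so these genes are not independent. The 78 members shared 55 distinct summits (6.17% of the main list) in 53 merged loci, and 21 of the 55 summits served more than 1 member.

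The annotated classes that were excluded around the members stood much higher. A summit lay within 200 bp of 36 of 129 snRNA genes (27.9%), 47 of 346 snoRNA genes (13.6%) and 81 of 612 tRNA genes (13.2%). None of 20 rRNA genes had one, for which the Wilson interval reaches 16.1%. Among ncRNA genes left out for lying near such a gene, 90 of 482 (18.7%, interval 15.4 to 22.4%) had a summit. The members' share was close to that of microRNA genes (4 of 261, 1.53%), pseudogenes (24 of 2128, 1.13%) and antisense RNA genes (1 of 100, 1%). The lincRNA genes, with a median length of 761 bp, stood higher, at 6 of 194 (3.09%, interval 1.43 to 6.58%). The members' share lay above that of the short, clustered piRNA genes (5 of 15363, 0.0325%). These classes differ in gene length, which sets the size of the window searched.

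**Figure D1:**
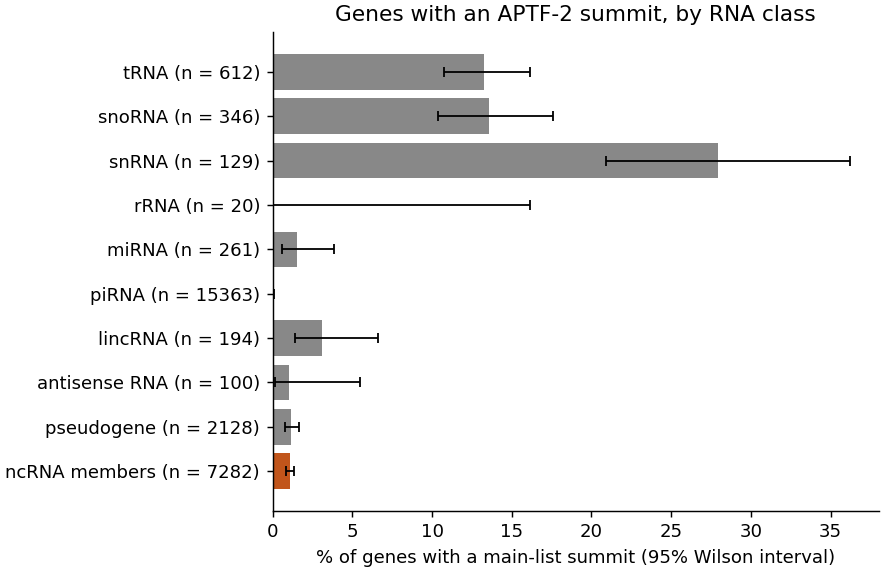
Share of genes with a main-list APTF-2 summit in the gene or within 200 bp, by annotated RNA class, with 95% Wilson intervals; n is the number of genes. The ncRNA members (orange, 1.07%) stand with microRNA genes, antisense RNA genes and pseudogenes. The lincRNA genes are at 3.09%, while snRNA, snoRNA and tRNA genes reach 13.2 to 27.9%.

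Counting summits per base removes the effect of window size. Bases within 200 bp of a member and inside a promoter window held 34 summits over 0.984 Mb, or 34.5 per Mb (exact Poisson interval 23.9 to 48.3). The promoter windows with no member near held 18.2 per Mb (16.6 to 19.9), so the ratio was 1.90 (exact interval 1.30 to 2.69). Outside promoter windows, bases near members held 21 summits over 2.28 Mb, or 9.20 per Mb (5.70 to 14.1). All other bases held 5.27 per Mb (4.75 to 5.82), which gave a ratio of 1.75 (1.07 to 2.71). The whole genome held 8.90 summits per Mb. Weak peaks were denser near members too, with 1247 against 980 ranked-list summits per Mb inside promoter windows and 1163 against 923 outside.

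These ratios depended on which bases and peaks were compared. With protein-coding exons left out, the ratio was 1.58 (1.05 to 2.28) inside promoter windows and 1.59 (0.972 to 2.47) outside, and the second interval includes 1. With the windows of tRNA, snoRNA, snRNA and rRNA genes left out of member and comparison bases alike, the ratios were 2.09 (1.43 to 2.97) and 2.38 (1.43 to 3.76). With both these windows and the exons left out, they were 1.75 (1.16 to 2.53) and 2.30 (1.38 to 3.64). In the list of replicate 2 alone they were 1.83 (1.05 to 2.99) and 2.78 (1.40 to 5.01). In the list of replicate 1 alone they were 1.60 (0.839 to 2.80) and 1.80 (0.711 to 3.83), and for the stronger 50% of the main list 1.52 (0.859 to 2.52) and 1.86 (0.836 to 3.63). In those last settings the intervals include 1.

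Within promoter windows the densities were also counted by distance from the start, and no test compared the distances with each other. In the first 100 bp on either side of a protein-coding start, member windows held 3 summits (15.3 per Mb, interval 3.15 to 44.7) against 19.8 per Mb (16.1 to 24.1) where no member lay. From 100 to 200 bp away they held 7 summits, or 41.9 per Mb (16.9 to 86.4), against 26.3 per Mb (21.8 to 31.4). From 200 to 400 bp away they held 13 summits, or 59.2 per Mb (31.5 to 101.3), against 24.1 per Mb (19.95 to 28.8) where no member lay. From 400 to 1000 bp the values were 27.4 (13.7 to 49) and 11.2 (9.26 to 13.4). The intervals of member and other bases overlapped within 200 bp of the start and were apart beyond it, and the range nearest to the start rests on 3 summits.

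**Figure D2:**
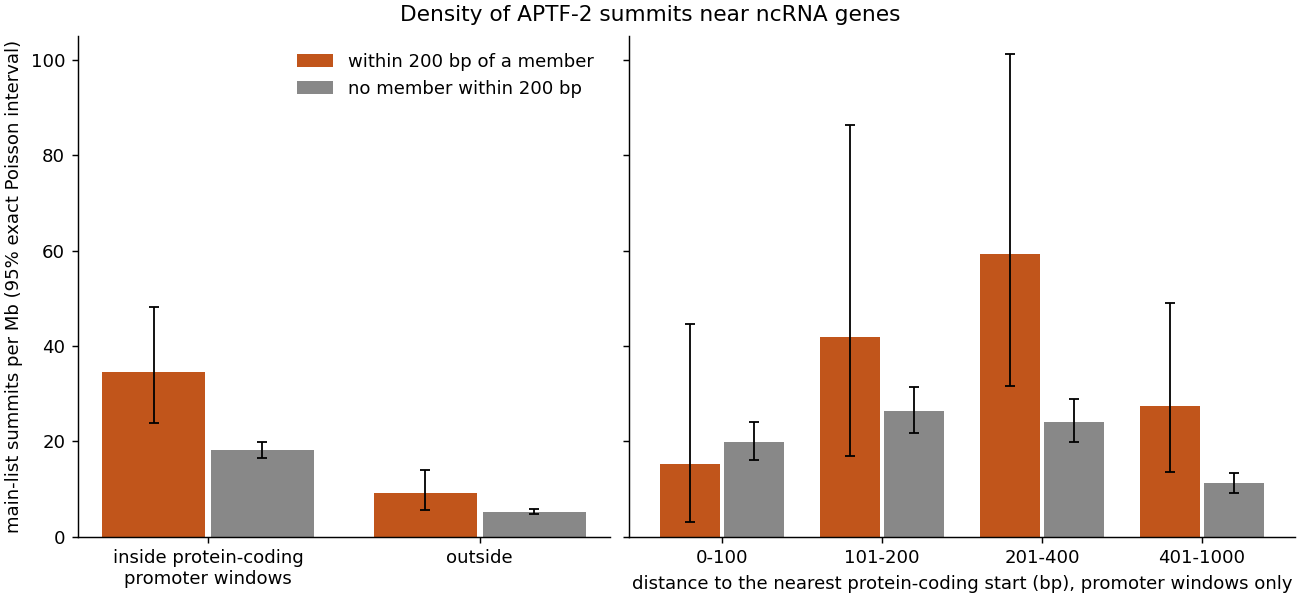
Main-list APTF-2 summits per Mb of sequence within 200 bp of a member (orange) and elsewhere (grey), inside and outside promoter windows (left) and by distance to the nearest protein-coding start inside promoter windows (right); error bars are 95% exact Poisson intervals. Inside promoter windows the member bases held 34.5 per Mb against 18.2, and the intervals of member and other bases were apart from 200 to 400 bp and from 400 to 1000 bp from a start.

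Of the RNAs with a known role or a long non-coding RNA name, 11 were members, and 5 had a main-list summit. The RNase P RNA gene rpr-1 had the highest signal of these. It lies at chrI:13463955-13464207 on the plus strand, antisense within an intron of ints-8, which encodes a subunit of the Integrator complex. Its summit sat 22 bp into the gene, with a main-list signal of 238.0 (rank 79 of 892). The overlapping peaks had signals of 105.4 in replicate 1 and 117.1 in replicate 2, and both replicates' own thresholded lists held it. The gene thus has a peak on its 5′ end in both replicates, with no similar copy of the summit window elsewhere in the genome.

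The RNase MRP RNA gene mrpr-1 (chrII:7200233-7200418, plus strand) was weaker. Its signal was 88.2 (rank 633), with 36.5 in replicate 1 and 45.3 in replicate 2, and neither replicate's own thresholded list held it. The authors' other thresholded list from both replicates did not hold it either. The summit sat 117 bp into the gene and also upstream of the start of pcrg-1. It lies in the promoter windows of the protein-coding genes E04F6.6 and pcrg-1 as well. The RNase MRP peak is therefore in the lower part of the main list, and position alone does not assign it to any of these genes.

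The 5 SRP RNA genes are near-copies, and their peaks differed. Over the gene, srpr-2.1 and srpr-2.2 were 99% identical and srpr-1.1 and srpr-1.2 98.3%. Genes of the first pair shared 94.0 to 94.3% with those of the second, and srpr-3 shared 81.7 to 82.7% with the others. Their 200 bp upstream were less alike, at 50.7 to 73.0%. Reads inside these genes can be hard to assign to 1 copy.

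Only srpr-2.2 and srpr-2.1 of this family were in the main list. The srpr-2.2 summit, 38 bp upstream of the RNA and antisense within an intron of the kinesin gene klp-6, had a signal of 106.5 (rank 416), with 56.3 in replicate 1 and 50.8 in replicate 2. The same summit lies in the overlapping member R144.16. The srpr-2.1 summit, inside the RNA, had a signal of 84.8 (rank 685), with 33.8 and 55.2. The srpr-2.1 summit window has 4 similar copies, all at SRP RNA genes. Here and below, a count of similar copies includes the window itself. The srpr-2.1 summit is thus in repeated sequence. The srpr-2.2 summit lies upstream of its RNA, and its window had no similar copy by the rule of at least 100 bp. That rule could not count the 63 bases of RNA in this window, part of which also opens the printed srpr-2.1 window. The srpr-2.2 peak itself reaches into the RNA, so some of its reads can be hard to assign as well.

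The other SRP RNA genes had weaker peaks, found only in the ranked list. There srpr-1.1 had a signal of 56.4 (rank 4628 of 94866), srpr-3 of 52.6 (rank 6427) and srpr-1.2 of 37.3 (rank 23398). In replicates 1 and 2 their overlapping peaks stood at 23.9 and 40.0 for srpr-1.1, 30.9 and 18.7 for srpr-3, and 27.3 and 32.7 for srpr-1.2. The summit window of srpr-1.2 also has 4 similar copies. In each replicate all 3 lay below both srpr-2.1 and srpr-2.2.

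The long RNA gene tts-1 (chrX:1504131-1504841, minus strand), whose RNA is known to be abundant in dauer larvae and long-lived mutants, had a signal of 179.9 (rank 132). Replicate 1 gave 92.7 and replicate 2 gave 87.4, and both own lists held the peak. The summit lay 189 bp past the 3′ end of the RNA and 1152 bp from the nearest protein-coding start. A weaker main-list peak with a signal of 11.9 overlaps it. The remaining RNAs of known name stood low in the ranked list. The Y RNA gene yrn-1, whose RNA binds the Ro protein, had 26.7 (rank 47374). The gene rncs-1, whose double-stranded RNA inhibits Dicer, had 23.9 (rank 54980), and linc-171 had 37.1 (rank 23741). For linc-171 in both replicates and yrn-1 in replicate 1, the replicate's own ranked list held no overlapping peak.

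**Figure D3:**
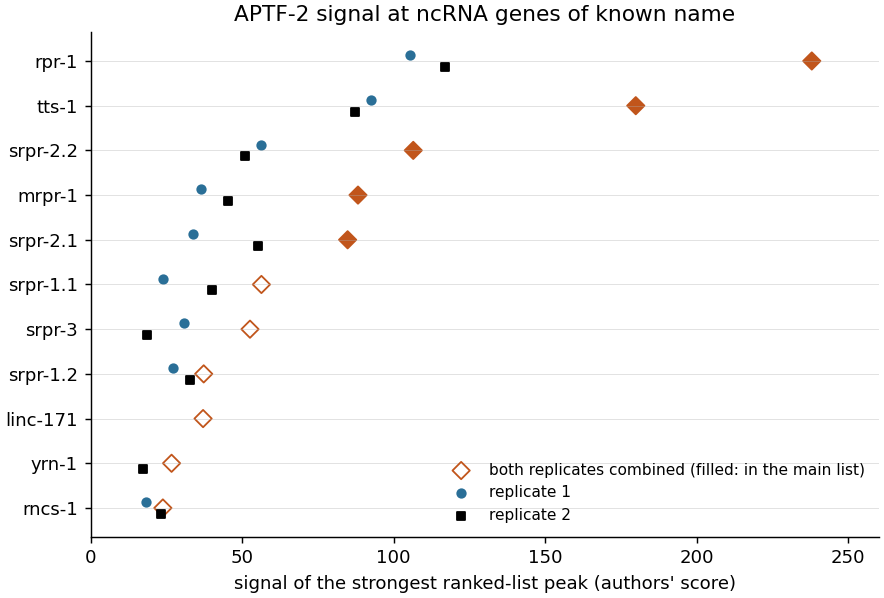
Signal of the strongest ranked-list peak at the 11 ncRNA genes of known name, from both replicates combined (diamonds, filled if in the main list), with the overlapping peak of each replicate's own ranked list (circles and squares); the lists have separate scales, so only points of 1 kind compare between genes. The RNase P RNA gene rpr-1 and tts-1 stand above the SRP RNA genes in both replicates, and yrn-1 and rncs-1 have the lowest combined signals.

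Outside promoter windows, 26 members at 20 distinct summits were bound, and 18 of these members are intergenic. The other 8 lie in introns of protein-coding genes, 7 of them antisense to the host. The distance from the summit to the nearest protein-coding start had a median of 1489 bp, from 226 to 10550 bp. The highest signal was at WBGene00195021, a 19 bp gene at chrIV:4725436-4725454 on the minus strand, with 403.3 (rank 22) and replicate values of 193.9 and 206.5. Its summit lay 143 bp upstream, 451 bp from the start of K08F11.1 on its downstream side. The summit window has 8 similar copies on 3 chromosomes counting itself. Of these, 3 hold a main-list summit, its own included, so reads may come from more than 1 of them.

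The genes rpr-1 (238.0, rank 79) and tts-1 (179.9, rank 132), described above, also lie outside promoter windows. Y41E3.460 (chrIV:15059461-15059685) ranked between them, with 195.1 (rank 109) and replicate values of 89.7 and 99.5. Its summit window is repetitive, with 538 similar copies on all 6 chromosomes, of which 29 hold a main-list summit, its own included. Y62F5A.16 (chrII:11537527-11537629), antisense in an intron of Y62F5A.9, had 174.7 (rank 138), 104.4 in replicate 1 and 73.9 in replicate 2. That summit window occurs once in the genome. All of these were in both replicates' own thresholded lists.

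C05D2.13, a pair of 49 bp genes with the same coordinates on opposite strands (chrIII:5621510-5621558), had 143.3 (rank 204). Its replicates were unlike, with 44.2 (rank 1012) in replicate 1 and 95.1 (rank 153) in replicate 2. Only the latter's own thresholded list held it. F36H1.17 (chrIV:11026131-11026219) had 138.8 (rank 219), with 55.5 and 80.2, and again only replicate 2's own list held it. T24D8.11 (chrX:2368440-2368713) had 121.6 (rank 305), with 57.4 and 50.8, and both own lists held it. The summits of C05D2.13, F36H1.17 and T24D8.11 all lie inside the RNA gene, 2508 to 3598 bp from the nearest protein-coding start.

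The remaining named members outside promoter windows had main-list signals from 77.1 to 96.8. F09A5.11 had 96.8, K08H10.14 had 96.6 and lies antisense in lea-1, and Y10G11A.91 had 94.5. Y38F2AL.11 had 88.9 and lies antisense in an intron of vha-11, a subunit gene of the proton pump. The summit shared by WBGene00196813, WBGene00200911 and WBGene00201963 had 87.3 and was the farthest from a protein-coding start, at 10550 bp. C40C9.7 and C40C9.11 shared a summit of 82.9, W08F4.16 and W08F4.18 one of 81.0 with 9 similar copies, and K02A11.6 and K02A11.9 one of 77.1. None of these summits was in both replicates' own thresholded lists.

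Inside promoter windows, the 15 members of highest signal had main-list signals of 134.5 to 292.7. Their summits cannot be assigned to the RNA or to the protein-coding gene from position alone. The pair named DY3.11, on both strands of chrI:8792473-8792618, had a signal of 292.7 (rank 48), with 135.8 and 154.6 in replicates 1 and 2. Its summit lies 107 bp from the RNA genes and 598 bp upstream of sup-17, which encodes a metalloprotease of Notch signalling. F22B3.19 (chrIV:11406887-11407033) had 251.2 (rank 68), with 140.4 and 111.1, and its summit lies within the RNA gene, 123 bp upstream of the histone gene his-64 and in the window of his-63. That summit window has 3 similar copies counting itself, all on the same chromosome, and only its own holds a main-list summit.

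T10B5.13 (chrV:1871980-1872075) had 180.1 (rank 131), with 90.7 and 91.3, in the promoter windows of T10B5.4 and the chaperonin subunit gene cct-7. F26D10.23 (chrIV:17278413-17278502) had 146.9 (rank 194), with 81.7 and 66.4, and its summit lies 374 bp upstream of hsp-1, a heat shock cognate gene. The pair F54D5.22 (chrII:11545464-11545613) had 134.5 (rank 241), with 60.2 and 75.9, at a summit 222 bp upstream of the J-domain gene dnj-13. The pair lies in an intron of dhgd-1, and its summit is also in the promoter window of F54D5.9. The summits of T10B5.13, F26D10.23 and F54D5.22 were in both replicates' own lists.

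The rest of the 15 promoter members follow, and grouping by gene function was not tested. F09E5.18 and F09E5.19 shared a summit of 167.5 (rank 152), with 84.7 and 86.3, in the promoter windows of F09E5.11 and bmy-1. C14F11.14 (chrX:6207835-6207981) had 166.9 (rank 155), with 92.9 and 65.9, 187 bp upstream of T13C5.6. F52D10.7, F52D10.9, F52D10.11 and F52D10.12 shared a summit of 138.5 (rank 220), with 72.5 and 68.1, 524 bp upstream of ftt-2, which encodes a 14-3-3 protein. F57B10.17 had 135.2 (rank 236), with 71.6 and 59.2, between the oligosaccharyltransferase subunit gene dad-1 and the trehalase gene tre-1. Only the F57B10.17 peak was missing from replicate 1's own thresholded list, and the others were in both.

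One locus was at the edge of the rule. The pair named Y47H9A.4 (chrI:11628598-11628666) had a main-list signal of only 17.5 (rank 863). The strongest overlapping replicate peaks had 98.9 (rank 145 in replicate 1) and 103.0 (rank 137 in replicate 2). Both genes overlap a promoter window, but the summit lies outside every such window, 1221 bp upstream of the start of W04G5.3. The densities therefore count it outside promoter windows. This summit lies 66 bp from the snRNA gene Y47H9A.2, although the members themselves lie over 200 bp from that gene, and the summit window has 8 similar copies. It was the only distinct summit with a tRNA, snoRNA, snRNA or rRNA gene within 1000 bp.

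The replicates' own lists held a minority of the member summits. Of the 55 distinct summits, 17 (30.9%, interval 20.3 to 44.0%) were in each replicate's separate thresholded list, 15 in 1 of these and 23 in neither. For the whole main list the share in both was 26.5%. Those lists are short, with 350 and 403 peaks. In the ranked lists, the signal of replicates 1 and 2 had a Spearman rho of 0.580 over the 53 summits that overlap no stronger peak, given as a description across summits. The same value over 849 main-list peaks was 0.586. Of the 53 summits, 24 ranked higher in replicate 1 than in replicate 2. The other thresholded list made from both replicates held 43 of the 55. Signal had a median of 98.3 at the member summits (4.86 to 403.3) and 103.2 at the other main-list summits.

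**Figure D4:**
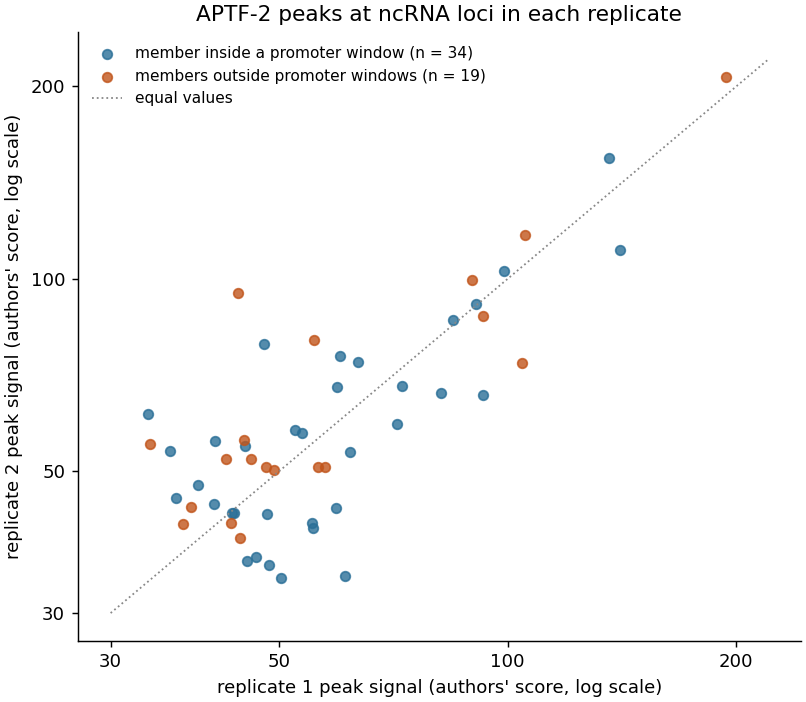
Signal of the strongest overlapping peak in each replicate's own ranked list at the 53 distinct member summits that overlap no stronger peak, on log axes, with 34 summits at members inside promoter windows (blue) and 19 at members outside (orange). Values run from 33.6 to 193.9 in replicate 1 and from 34.0 to 206.5 in replicate 2, and scatter on both sides of the dotted line of equal values. The lists have separate scales, so the line is a guide only.

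The rule allows a summit up to 200 bp from the RNA. Of the 78 bound members, 38 had the summit within the gene, 18 upstream and 22 downstream, and the median gap between gene and summit was 8 bp. Of the 55 distinct summits, 38 were intergenic with respect to protein-coding genes, 13 were in introns and 4 in exons. Bound members had a median length of 147.5 bp, against 141 bp for all members. By length, 3 of the 90 members under 50 bp (3.33%, interval 1.14 to 9.35%) and 8 of the 351 of 300 bp or more (2.28%, 1.16 to 4.43%) were bound. Those 3 are WBGene00195021 and the C05D2.13 pair, which shares a summit, and the intervals count members sharing a summit separately. The 4 length classes between them had shares of 0.823 to 1.33%, and their intervals overlapped those of both ends.

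The share with a summit varied with place in the genome. It was 57 of 3974 (1.43%, interval 1.11 to 1.85%) for intergenic members, 18 of 2498 (0.721%, 0.456 to 1.14%) for members in protein-coding introns and 3 of 810 (0.370%, 0.126 to 1.08%) for those in exons. Chromosome X holds 2347 members (32.2%), more than any other, and 16 of them (0.682%, 0.420 to 1.10%) were bound, against 62 of 4935 on the autosomes (1.26%, 0.981 to 1.61%). The main list itself has 12.8% of its summits on X. Per Mb, member windows on X held 20.1 summits inside promoter windows (7.38 to 43.7) against 7.85 in promoter windows without members, and 6.995 outside them (2.27 to 16.3) against 5.71. On the autosomes the corresponding values were 40.8 (27.1 to 59.0) against 19.9 and 10.2 (5.83 to 16.6) against 5.17.

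**Figure D5:**
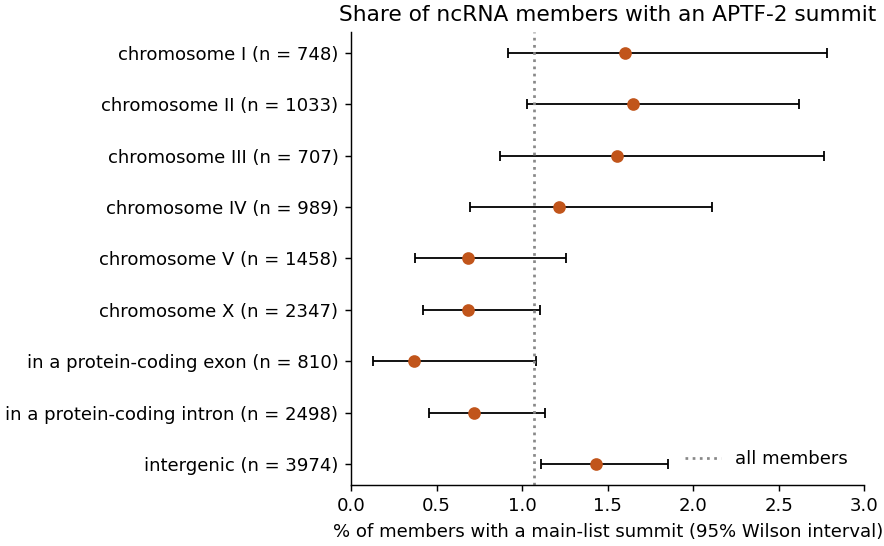
Share of members with a main-list APTF-2 summit by chromosome and by position relative to protein-coding genes, with 95% Wilson intervals; n is the number of members and the dotted line is the share over all members. Chromosomes V and X (0.686 and 0.682%) lie below the line and intergenic members (1.43%) above it, while the intervals of the chromosomes overlap.

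In the ranked list, most members had some peak. A ranked-list summit lay within 200 bp of 4084 of 7282 members (56.1%, interval 54.9 to 57.2%), against 7944 of 24789 non-coding RNA genes of every class (32%). Of the piRNA genes 14.6% had one, and without them the count was 5695 of 9426 (60.4%), above that of the members. Members inside promoter windows reached 58.2% and those outside 55.1%. Their strongest signals had a median of 32.3 and 31.5, against 26.7 over all ranked peaks, and a member takes the strongest of its peaks, which raises its value. A further 75 members had no main-list summit but a ranked-list peak with a global IDR of 0.05 or less, 34 inside promoter windows and 41 outside.

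The 5 highest signals among members without a main-list summit ran from 81.5 to 110.0. Main-list signals had a lower quartile of 86.0 and a median of 102.9, and only R13H8.5 lay above these. R13H8.5, antisense in an intron of the FOXO gene daf-16, had 110.0 in the ranked list (rank 437) and an IDR score of 813, just under the 830 that stands for a global IDR of 0.01. Its replicates differed, with 73.6 (rank 249) in replicate 1 and 31.5 (rank 4737) in replicate 2. Y41E3.459 had 84.7 with 26.7 and 47.6, and F09E10.16 had 84.2 with 42.9 and 33.9 and 17 similar copies of its window. R53.9, with R53.11 at the same summit, had 81.9 with 24.4 and 52.3, and T26A5.10 had 81.5 with 54.7 and 24.5. These members missed a limit on agreement between replicates, so unlike replicate values among them are in part a product of how they were chosen.

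Over all member summits together, the E2F motif and the B box core were about as frequent as at other peaks. The E2F motif, searched on both strands as TTT, then 2 bases of C or G, then CGC, stood in 7 of 55 windows of 100 bp on either side of a summit (12.7%, interval 6.30 to 24.0%). It stood in 12.2% of the other 837 main-list windows and in 5.01% of windows of the same length at the midpoints of all 7282 members. The B box core GTTCNANNC stood in 6 of 55 (10.9%, interval 5.10 to 21.8%), against 13.7% and 6.70%. At promoter members, 6 of 35 summits held the E2F motif (17.1%, 8.10 to 32.7%) and 5 of 35 the B box core (14.3%, 6.26 to 29.4%). At the other members, 1 of 20 held each (5%, 0.888 to 23.6%). The other main-list windows were not split in this way. The AP-2 palindrome GCCNNNGGC stood in none of 55, for which the Wilson interval reaches 6.53%, against 2.87% of the other main-list windows and 2.62% of member midpoints. GC content had a median of 48.3% at the member summits, 45.3% over the main list and 41.8% at member midpoints. A match is a stretch of letters, not a site shown to be bound.

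In all, 12 of the 55 summits held either motif and 1 held both, and the sequences around 7 of them are printed to show where the letters fall. They were chosen after their values were seen, as the 7 of highest signal. Each runs 30 bp beyond the outermost motif, on the strand of the RNA, and capitals mark the motif or its reverse complement. C05D2.13 (chrIII:5621531-5621598), F52D10.7 (chrX:11605845-11605912) and Y55F3AR.4 (chrIV:1094311-1094378) hold the E2F motif. F36H1.17 (chrIV:11026125-11026193), K10H10.14 (chrII:14497031-14497099) and C14F11.14 (chrX:6207870-6207938) hold the B box core, and K01G5.12 (chrIII:10748112-10748213) holds both.
C05D2.13: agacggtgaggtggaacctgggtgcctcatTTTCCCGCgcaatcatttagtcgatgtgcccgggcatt
F52D10.7: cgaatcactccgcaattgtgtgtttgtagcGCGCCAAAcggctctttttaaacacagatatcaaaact
Y55F3AR.4: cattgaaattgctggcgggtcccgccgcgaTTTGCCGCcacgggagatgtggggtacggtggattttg
F36H1.17: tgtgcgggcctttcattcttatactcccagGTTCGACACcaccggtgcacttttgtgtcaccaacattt
K10H10.14: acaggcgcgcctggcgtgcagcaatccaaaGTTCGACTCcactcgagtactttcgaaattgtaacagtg
C14F11.14: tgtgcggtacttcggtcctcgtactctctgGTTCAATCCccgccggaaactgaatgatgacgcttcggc
K01G5.12: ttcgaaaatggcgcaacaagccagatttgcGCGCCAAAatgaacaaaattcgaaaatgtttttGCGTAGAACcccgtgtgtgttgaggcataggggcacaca
The E2F motif lay 6 bp from the summit at Y55F3AR.4, 27 bp at C05D2.13 and 65 bp at F52D10.7. The B box core lay 6 bp from the summit at K10H10.14, 23 bp at F36H1.17 and 30 bp at C14F11.14. At K01G5.12, in the promoter windows of the pseudouridine synthase gene dkc-1 and the Ran GTPase gene ran-1, the E2F motif lay 18 bp and the B box core 52 bp from the summit. Main-list signals were 131.5 at Y55F3AR.4, 132.3 at K10H10.14 and 112.5 at K01G5.12. The window of C14F11.14 has 3 similar copies on chromosome X counting itself, and only its own holds a main-list summit.

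Similar copies elsewhere in the genome limit where a peak can be placed. Copies were BLAST matches with at least 90% identity over at least 100 bp of the window on either side of the summit. Counts of copies include the window itself, and a summit had copies if another match was found. Of the 55 summits, 9 (16.4%, interval 8.86 to 28.3%) had such copies, against 213 of 892 in the main list (23.9%). With these left out, 66 members were bound at 46 summits, 46 inside promoter windows and 20 outside, and the density ratios were 2.11 (1.42 to 3.05) and 1.84 (1.01 to 3.09).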

How the data were processed

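The data were peak lists from 1 group of 2 labelled biological replicates. The authors' lists are on assembly ce11 and were ranked or thresholded by IDR, per the deposited README files. The aligner and the caller were not given in the sources used here. Each peak's deposited signal came from the authors' caller and has no stated unit. A deposited IDR score of 540 stands for a global IDR of 0.05 and 830 for 0.01. Signals from both replicates combined were compared within a list only, since pooling raises them. Values of replicates 1 and 2 were set side by side as description only. Neither sequencing depth nor a control entered any value, and p-values were not computed, since the design holds no contrast between samples.

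Peak ends were checked against WBcel235 chromosome lengths. Genes came from Ensembl release 115. Replicate values are the strongest peak of each replicate's own ranked list (54777 and 51529 peaks) overlapping the main-list peak. Shares carry Wilson intervals, densities exact Poisson intervals and their ratios exact conditional binomial intervals, each at 95%. Such intervals treat summits or genes, not animals, as units. The summit counting was tested on simulated peaks. Software was Python 3.11.15, NumPy 2.4.6, pandas 2.3.3, SciPy 1.17.1, Biopython 1.88, matplotlib 3.10.9 and BLAST 2.17.0.

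The members, motifs and lists of named RNAs were chosen with earlier results of these data known. Named members are the 25 of highest main-list signal outside promoter windows, the 15 of highest signal inside, the 5 of highest ranked signal without a main-list summit, and RNAs of known role. No symbol beginning with sls- and no terr-1 was found among members. Alternatives covered the other lists, each replicate alone, the stronger 50% of peaks, other windows, distances from structural RNA genes, peak overlap and single-copy windows. Settings for density, ranked signal and motifs, and the removal of peaks overlapping a stronger one, were added after the data were seen.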

Additional observations from a re-analysis of the deposited data

How the results depend on the processing

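Of 7282 members, 78 were bound at 55 summits, 52 inside promoter windows and 26 outside. With 1 replicate's own list in place of the main one (without replicate 1 or without replicate 2), the counts were 29 to 37 members, 22 to 24 inside, 7 to 13 outside and 20 to 29 summits, and 35 to 37.4% of members had a ranked-list summit. These lists are shorter. The density ratio ranged from 1.6 to 1.83 inside promoter windows and from 1.8 to 2.78 outside. With the stronger 50% of peaks they were 36 members, 25 inside, 11 outside and 25 summits, with 35.6% for the ranked list. With 0 bp on either side they were 39, 25, 14 and 31, with 21.4%, and with a wider window 51 outside and 74.6%, as window size sets these. The ranked share was 54.4% in the other ranked list and 67% by peak overlap. The other thresholded list gave 69 members, and a distance of over 1000 bp from structural RNA genes gave 75. Other counts stayed within 1.5 times. No paired analysis was possible because the design has 1 group and no contrast between samples. The lists limit the reading: depth is unknown, no control or untagged animals were analysed here, whole animals mix tissues, and 35 of 78 bound members had no thresholded peak in either replicate alone.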
